A study of Mus musculus with 2 samples.

Results

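Mir192, Mir194-1, Mir194-2 and Mir215 form 2 paralogous clusters of microRNA (miRNA) genes, and all 4 were found among the 1973 miRNA genes measured in the newborn mouse heart. The members were chosen by name, through the Ensembl identifiers of the gene rows, and each identifier had a row in both libraries. The samples were the hearts of 2 mouse pups of strain B6NCrl on postnatal day 0, one heart to a library, from the litter of pregnant female 1. Pup 2 is replicate 1 and pup 3 is replicate 2, and sex was not collected. The labels name no treatment and no genotype beyond the strain, so there is 1 group and no contrast between conditions. Total RNA was sequenced with inserts under 30 nt.

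The miR-192 family is best known from epithelia of endodermal and renal origin. Its members are abundant in gut, liver and kidney, where hepatocyte nuclear factors drive the clusters, and they belong to the miRNAs that p53 induces. miR-192 and miR-215 are near-copies that share a seed, the stretch of bases 2 to 8 that pairs with target messenger RNAs, while miR-194 has another seed and is encoded once beside each of them. Each gene is transcribed into a hairpin, from which the 5p arm and the 3p arm are cut as mature miRNAs.

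The mature arms are shown because 1 of them decides what the counts of the Mir194 genes can hold. The sequences are RefSeq's on GRCm38.p6, which had an entry for all 4 genes, with the seed in capitals.
miR-192-5p (Mir192): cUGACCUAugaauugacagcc
miR-215-5p (Mir215): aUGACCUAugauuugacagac
miR-194-5p (Mir194-1 and Mir194-2): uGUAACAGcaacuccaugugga
miR-194-1-3p (Mir194-1): cCAGUGGAgcugcuguuacuuc
miR-194-2-3p (Mir194-2): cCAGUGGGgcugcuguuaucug
miR-192-3p (Mir192): cUGCCAAUuccauaggucacag
miR-215-3p (Mir215): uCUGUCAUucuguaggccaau

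The 5p arms of Mir192 and Mir215 had the same seed and were identical at 18 of 21 bases. Counted from 1 at the 5′ end, with the base of miR-192-5p first, they differed by C1A, A12U and C20A, none of them in the seed. The 5p arm of Mir194-1 and Mir194-2 was the same in all 22 bases. Their 3p arms differed at 4 of 22 bases, by A8G, C19U, U20C and C22G with the base of miR-194-1-3p first, and A8G lies in the seed. The 8 arms thus made 7 distinct mature sequences with 6 distinct seeds, and the 3p arms of Mir192 and Mir215 had no seed in common. In the RefSeq table of 1738 mature entries, no gene outside the members carried the seed of miR-192-5p and miR-215-5p or that of miR-194-5p. The seed of miR-194-2-3p also occurred in Mir6926, with 1 count in replicate 1 and 0 in replicate 2, and in Mir7055, which is named only.

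Both clusters have the same layout on GRCm38, with a Mir194 gene upstream and the miR-192 family gene downstream, all on the plus strand. Mir194-1 lies at chr1:185313319-185313385 and Mir215 at chr1:185313581-185313692, with 195 bases between the hairpins. Mir194-1 falls in an intron of 2010103J01Rik, a noncoding gene on the same strand, and Mir215 overlaps an exon of that gene. Both also lie in an intron of Iars2, the mitochondrial isoleucyl-tRNA synthetase gene, which runs on the opposite strand. Mir194-2 lies at chr19:6264643-6264728 and Mir192 at chr19:6264844-6264932, with 115 bases between the hairpins. No other annotated gene overlaps this pair, which sits 2307 bases downstream of Atg2a, an autophagy gene on the same strand.

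**Figure D1:**
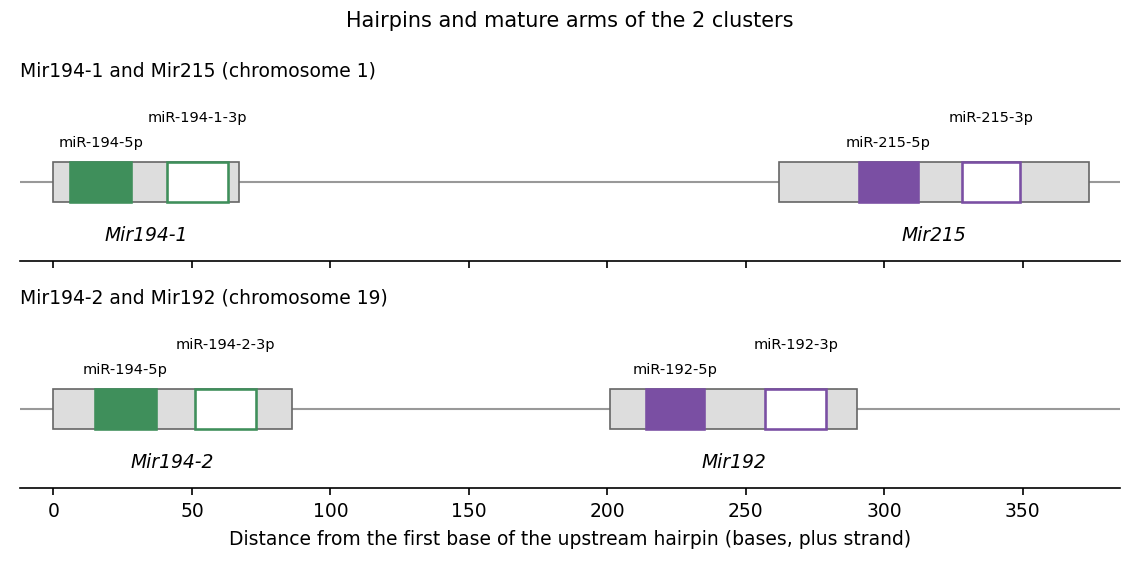
Position of the hairpins (grey boxes) and mature arms (5p filled, 3p open; miR-194 green, miR-192 and miR-215 purple) in bases from the first base of the upstream hairpin. The order is the same in both clusters, and the gap between hairpins is 195 bases on chromosome 1 and 115 bases on chromosome 19.

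The hairpins show where the paralogs are alike, with the mature arms in capitals.
Mir194-1: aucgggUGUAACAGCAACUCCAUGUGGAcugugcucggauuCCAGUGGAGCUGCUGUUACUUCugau
Mir194-2: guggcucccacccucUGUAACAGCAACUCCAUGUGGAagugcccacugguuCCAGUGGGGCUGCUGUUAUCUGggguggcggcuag
Mir215: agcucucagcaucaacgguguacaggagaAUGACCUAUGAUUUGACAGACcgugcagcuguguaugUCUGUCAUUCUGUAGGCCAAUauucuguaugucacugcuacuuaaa
Mir192: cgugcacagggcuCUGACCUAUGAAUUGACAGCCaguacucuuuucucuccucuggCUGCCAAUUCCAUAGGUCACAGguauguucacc

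In a global alignment, Mir194-1 and Mir194-2 were identical at 61.5% of 91 columns and Mir215 and Mir192 at 56.1% of 114. The 4 pairs of a Mir194 gene with a miR-192 family gene were identical at 44.9% to 48.6%. The longest stretch that the Mir194 hairpins shared was the 22 bases of miR-194-5p itself. Mir215 and Mir192 shared no stretch longer than 10 bases, and no member shared more than 12 bases with any of 1001 other hairpins.

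This matters for the counts because reads aligned to several places were kept in a row of their own and given to no gene. In replicate 1 that row was 36.6% of the library, and in replicate 2 it was 37.1%. For each arm, 25 possible reads were drawn up by moving each end by up to 2 bases. Of the 25 from miR-194-5p, 9 also occurred in the hairpin of the other Mir194 gene, among them the annotated mature sequence. The other 16 reach past an end of the 22 shared bases and occurred in 1 hairpin only. None of the 25 reads from each of the other 6 arms occurred in another hairpin. The comparison was of exact matches within miRNA hairpins and did not cover the rest of the genome. The counts of Mir194-1 and Mir194-2 are therefore uncertain, and how many miR-194-5p reads they lack was not measured. An arm that is identical in another gene was present in 48 of 540 genes with a count and a RefSeq mature entry (8.89%).

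The libraries held 2323450 sense counts on miRNA genes in replicate 1 and 3487183 in replicate 2. Levels are given as CPM, sense counts scaled to a total of 1000000, with the SD over the 2 pups. All arms have 21 or 22 bases, so no scaling by length was made. The yield of reads per molecule can differ between miRNAs and is unknown here. Intervals are exact Clopper-Pearson 95% intervals of 1 library and cover counting error only, not differences between animals or library preparations. Amplified reads carry no molecular identifier and can be copies of 1 molecule, so the intervals can be too narrow even for counting error. The tissue carried its defining miRNAs: the heart muscle markers Mir208a, Mir208b and Mir499 together took 9.01% of counts in replicate 1 and 8.89% in replicate 2, and the vessel markers Mir126a, Mir143 and Mir145a took 20.6% and 20.8%. The classical muscle miRNAs outside this marker list were counted at low levels: Mir1a-1 had 17 and 19 counts, Mir133a-1 had 20 and 25, and Mir133a-2 had 5 and 7. These genes belong to families with several loci, whose reads can fall among those aligned to several places.

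Mir215 had the most assigned counts of the 4 genes. It had 1480 counts in replicate 1 and 2159 in replicate 2. This is 637 CPM (605 to 670) and 619 CPM (593 to 646), or 628 ± 12.6 CPM (SD, n = 2). It ranked 87 of 1973 genes by mean level, above Mir451a, the miRNA of red cells, at rank 99. Its share of all sense counts was 0.0628%.

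By assigned counts, the other 3 genes lay close together and far below Mir215. For Mir194-1 and Mir194-2 these counts leave out reads that match both genes, so their levels, ranks and order are uncertain. Mir194-1 had 205 and 277 counts, which is 88.2 CPM (76.6 to 101.2) in replicate 1 and 79.4 CPM (70.4 to 89.4) in replicate 2, with a mean of 83.8 ± 6.22 CPM and rank 166. Mir192 had 179 and 249 counts, which is 77.0 CPM (66.2 to 89.2) and 71.4 CPM (62.8 to 80.8), with a mean of 74.2 ± 3.99 CPM and rank 172. Mir194-2 had 168 and 233 counts, which is 72.3 CPM (61.8 to 84.1) and 66.8 CPM (58.5 to 76.0), with a mean of 69.6 ± 3.88 CPM and rank 178. The order was the same in both pups, but within each library the intervals of these 3 genes overlapped. The values of Mir192 and Mir194-2 also overlapped between pups, while both values of Mir194-1 lay above both of Mir192. For scale, 327 genes reached 2 CPM in both hearts, and their median level was 81.8 CPM in replicate 1 and 93.8 CPM in replicate 2. By assigned counts, Mir194-1, Mir192 and Mir194-2 were thus near the middle of the detected miRNAs. Where Mir194-1 and Mir194-2 would stand with the shared reads was not measured.

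**Figure D2:**
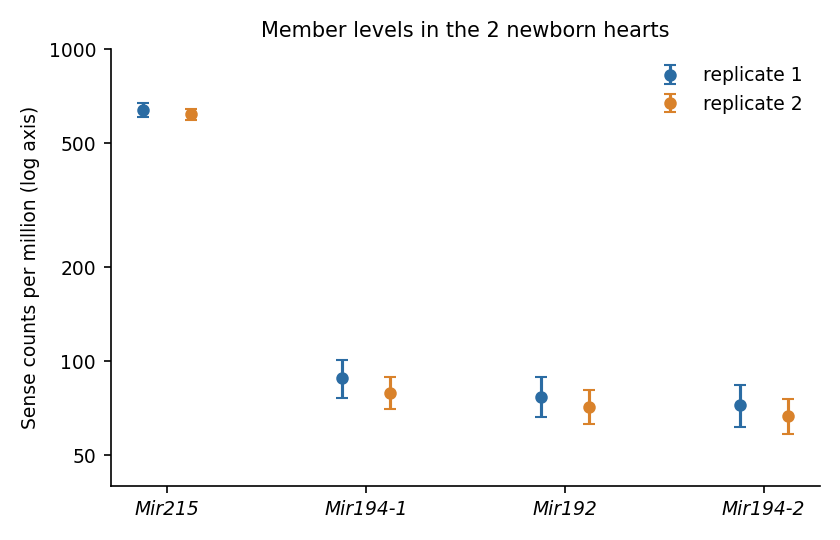
Level in CPM (log axis) of each member in replicate 1 (blue) and replicate 2 (orange); bars are exact 95% intervals that cover counting error only. Mir215 lies at 637 and 619 CPM, and the other members lie between 66.8 and 88.2 CPM with overlapping intervals. Reads shared between members are not counted.

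The 4 genes together held 2032 counts in replicate 1 and 2918 in replicate 2, or 856 ± 26.7 CPM. Of these, the chromosome 1 cluster held 82.9% in replicate 1 and 83.5% in replicate 2, and Mir215 alone held 72.8% and 74.0%. The chromosome 19 cluster held 17.1% and 16.5%. Reads of miR-194-5p that were assigned to no gene are missing from these shares.

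Within the family that shares a seed, most counts came from Mir215. Mir215 exceeded Mir192 by a log2 ratio of 3.05 in replicate 1 and 3.12 in replicate 2, with a mean of 3.08 ± 0.0485 (SD, n = 2), or 8.47-fold. It held 89.2% (87.6% to 90.7%) of the counts of this pair in replicate 1 and 89.7% (88.4% to 90.8%) in replicate 2. This ratio is not touched by the shared miR-194-5p arm. The counts are per gene, so they do not separate the 5p arms, which share the seed, from the 3p arms, which do not.

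The Mir194 genes differed little in their counts. Mir194-1 exceeded Mir194-2 by a log2 ratio of 0.29 in replicate 1 and 0.25 in replicate 2, with a mean of 0.27 ± 0.0266 (SD, n = 2), or 1.20-fold. Mir194-1 held 55.0% (49.8% to 60.1%) of the pair's counts in replicate 1 and 54.3% (49.9% to 58.7%) in replicate 2. The difference had the same direction in both pups, and within each library the interval included an equal share. Since only reads that tell the loci apart were counted, the ratio describes those reads and not miR-194-5p as a whole.

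The clusters differed in how their neighbours compared. On chromosome 1, Mir215 exceeded Mir194-1 by a log2 ratio of 2.85 in replicate 1 and 2.96 in replicate 2, with a mean of 2.91 ± 0.0781 (SD, n = 2), or 7.50-fold. On chromosome 19, Mir192 and Mir194-2 were nearly equal, with a log2 ratio of 0.09 in replicate 1 and 0.10 in replicate 2 and a mean of 0.09 ± 0.00305 (SD, n = 2), or 1.07-fold. Mir192 held 51.6% (46.2% to 57.0%) of the counts of its cluster in replicate 1 and 51.7% (47.1% to 56.2%) in replicate 2. Unassigned miR-194-5p reads, if counted, would lower the ratio of the cluster they came from. Neither their number nor their locus was measured. The ratios were not tested across pups, because with 2 pups the smallest p of an exact two-sided sign-flip test is 0.5.

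Neighbouring miRNA genes often differed in level elsewhere as well. Among 54 other pairs of adjacent miRNA genes on 1 strand, with at most 1000 bases between them and at least 10 counts of each gene in each library, the median absolute log2 difference in level was 2.40, or 5.27-fold. Mir194-1 and Mir215 lay further apart than 31 of these pairs and closer than 23. Mir194-2 and Mir192 lay closer than 53 of the 54, and the exception was the pair of Mir540 and Mir665. Some of these pairs share sequence with other loci in the same way as the Mir194 genes. The places of both member pairs rest on assigned counts, which leave out reads that match both Mir194 genes, so these places are uncertain.

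**Figure D3:**
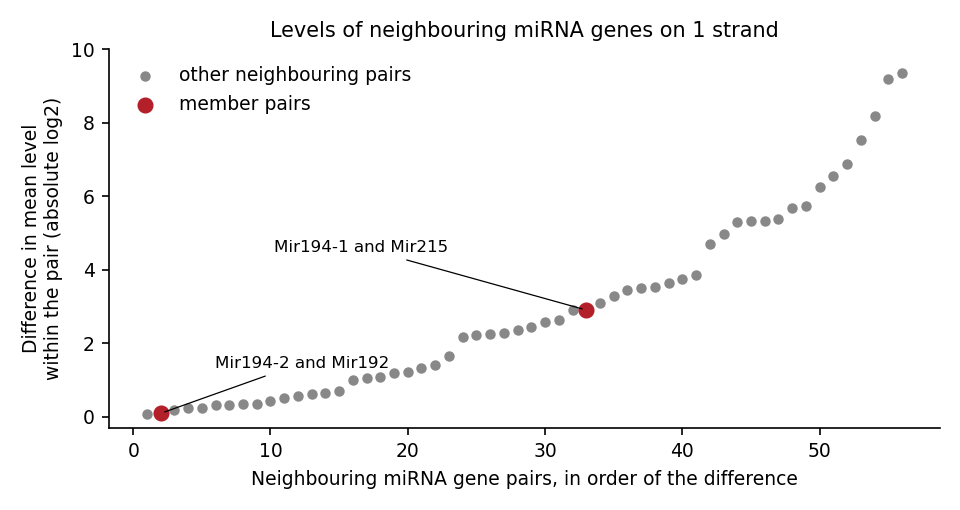
Absolute log2 difference in mean level within each pair of adjacent miRNA genes on 1 strand, in order of size; grey points are 54 other pairs and red points are the member pairs. By assigned counts, Mir194-2 and Mir192 are second from the bottom, and Mir194-1 and Mir215 lie near the middle. Reads shared between members are not counted.

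None of the members had a read on its opposite strand. The opposite strand count was 0 for all 4 genes in both libraries, and a count of 0 allows a level of up to 1.29 CPM in the first library and 0.860 CPM in the second. Over all miRNA genes, 6.62% of gene counts in replicate 1 and 6.67% in replicate 2 were on the opposite strand. Those reads lay in 27 of 1973 genes in replicate 1 and 32 in replicate 2. No read from the strand of Iars2, which crosses Mir194-1 and Mir215, was thus counted in their rows.

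The hearts did not differ detectably in any member. For each gene, the split of its counts between the libraries was set against the ratio of the TMM-scaled library sizes (edgeR) with a two-sided exact binomial test, and p was adjusted by Benjamini-Hochberg over the 615 genes with a count. This test compares 2 libraries at counting error only, and animal and library preparation cannot be told apart. It called 86 genes at an adjusted p under 0.05, which is 14% of those tested, 55 higher in replicate 2 and 31 lower. Among the 193 genes whose mean reached 50 CPM, a group that includes the members, 37.8% were called. Of the 4 members, 0 were called. At an unadjusted p under 0.05 by the same test, the count was 118 of the 615 genes and 0 of the members. With only 4 genes, a count of 0 does not set the members apart from the other genes.

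The level of Mir215 in replicate 2 was 0.961-fold that in replicate 1 (exact 95% interval 0.899 to 1.03, adjusted p = 0.727 by the exact binomial test). Mir194-1 had the largest difference of the 4, 0.890-fold (0.740 to 1.07, adjusted p = 0.659 by the exact binomial test). Mir192 stood at 0.916-fold (0.753 to 1.12) and Mir194-2 at 0.914-fold (0.746 to 1.12), each with an adjusted p of 0.790 by the exact test. The intervals are wider for the 3 less abundant genes, whose counts were lower. On the log2 scale, with a pseudocount of 1 CPM, the members lay between -0.17 and -0.06, with a median of -0.13. The median over all 615 genes tested was 0.02, and the median absolute log2 ratio of the 193 genes whose mean reached 50 CPM was 0.11. Of those 193 genes, 128 (66.3%) had a ratio no further from 0 than that of Mir194-1.

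**Figure D4:**
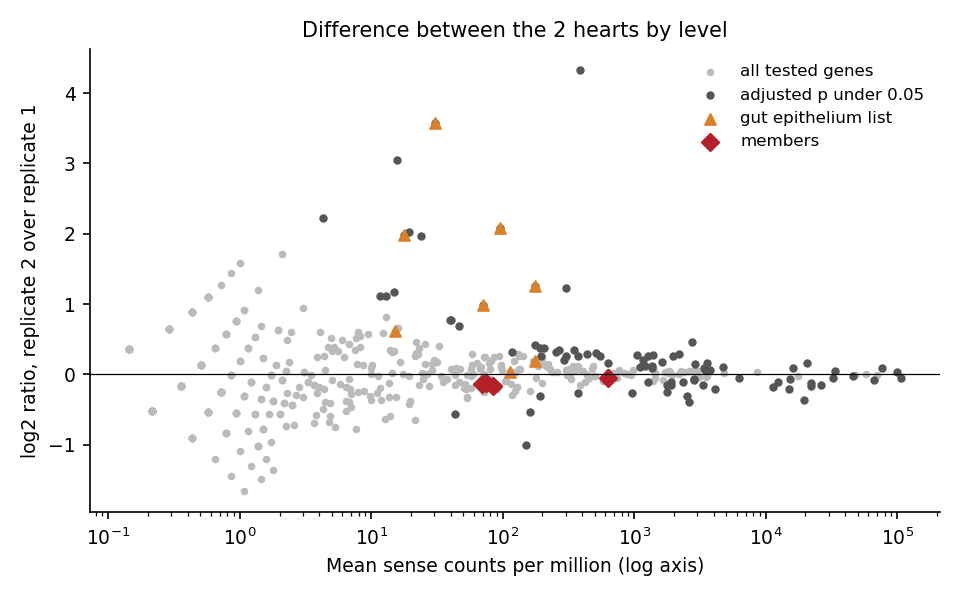
log2 ratio of replicate 2 over replicate 1 (pseudocount 1 CPM) against the mean level (log axis) for the 615 genes tested; dark points passed the exact test, orange triangles are the gut epithelium list and red diamonds are the members. The members lie between -0.17 and -0.06, while 5 of the 8 genes of the gut epithelium list passed the test and were higher in replicate 2. Of all genes tested, 14% passed in either direction. The gut epithelium list does not identify gut cells.

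The members were set beside other miRNAs of the tissues for which they are known. The gut epithelium list held Mir200a, Mir200b, Mir200c, Mir141, Mir429, Mir375, Mir31 and Mir203. Of these, 6 also served as markers of gut and other epithelium together, so the list does not identify gut cells. Of its 8 genes, 5 were higher in replicate 2 and 0 lower by the exact binomial test, and its median log2 ratio was 1.12. Among all genes tested, 14% were called in either direction, and 37.8% of those whose mean reached 50 CPM. The summed level of the list was 481 CPM in replicate 1 and 907 CPM in replicate 2. The miR-200 genes, which keep cells epithelial, carried most of this difference. Mir429 had 102 CPM in replicate 1 and 248 CPM in replicate 2, and Mir200c had 35.7 and 155.7 CPM. Mir375, a miRNA of endocrine and gut cells, had 9 and 200 counts. Its other abundant genes differed less and did not pass: Mir203, a miRNA of stratified epithelia, had 164 and 189 CPM, and Mir31 had 112 and 116 CPM. The members together stood at 875 CPM in replicate 1 and 837 CPM in replicate 2. In replicate 1, Mir215 alone had more counts than the whole gut epithelium list, with 1480 against 1118, and in replicate 2 it had fewer, with 2159 against 3164. Whether the epithelial signal has a part in the level of the members was not tested. In whole hearts, fewer cells of a type and less RNA per cell cannot be told apart.

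The liver list held Mir122, the miRNA of hepatocytes, Mir802, Mir148a and Mir101b. Mir122 had 125 counts in replicate 1 and 165 in replicate 2, or 53.8 and 47.3 CPM, below all 4 members in both hearts. Mir802, a miRNA of liver and pancreas, had 0 counts in both, which allows up to 1.29 and 0.860 CPM. Mir148a, at 1688 and 1616 CPM, did not pass the test, and Mir101b was higher in replicate 2, at 1300 and 1436 CPM (adjusted p = 0.00122 by the exact binomial test). The list thus had 1 gene higher and 0 lower of 3 tested, with a median log2 ratio of -0.08. The share called was 14% over all genes tested and 37.8% over those whose mean reached 50 CPM.

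The kidney and pancreas list held Mir204, Mir211, Mir216a, Mir216b, Mir217, Mir10a and Mir10b. Mir204, a miRNA of kidney and eye, had 53.4 and 53.9 CPM. Of the pancreatic miRNAs, Mir216a had 0 counts in both hearts, Mir216b had 0 and 1, and Mir217 had 0 and 3. Mir10a and Mir10b, of the Hox clusters, had 1148 and 1422 CPM in replicate 1. Mir10a was higher in replicate 2, at 1398 CPM, and it was the only call among 6 genes tested in this list. The share called was 14% over all genes tested and 37.8% over those whose mean reached 50 CPM. The median log2 ratio of the list was 0.31. That median takes in Mir216b and Mir217, whose ratios rest on the pseudocount because replicate 1 had 0 counts. The most abundant genes, Mir10b, Mir10a and Mir204, had log2 ratios of -0.09, 0.27 and -0.00177.

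**Figure D5:**
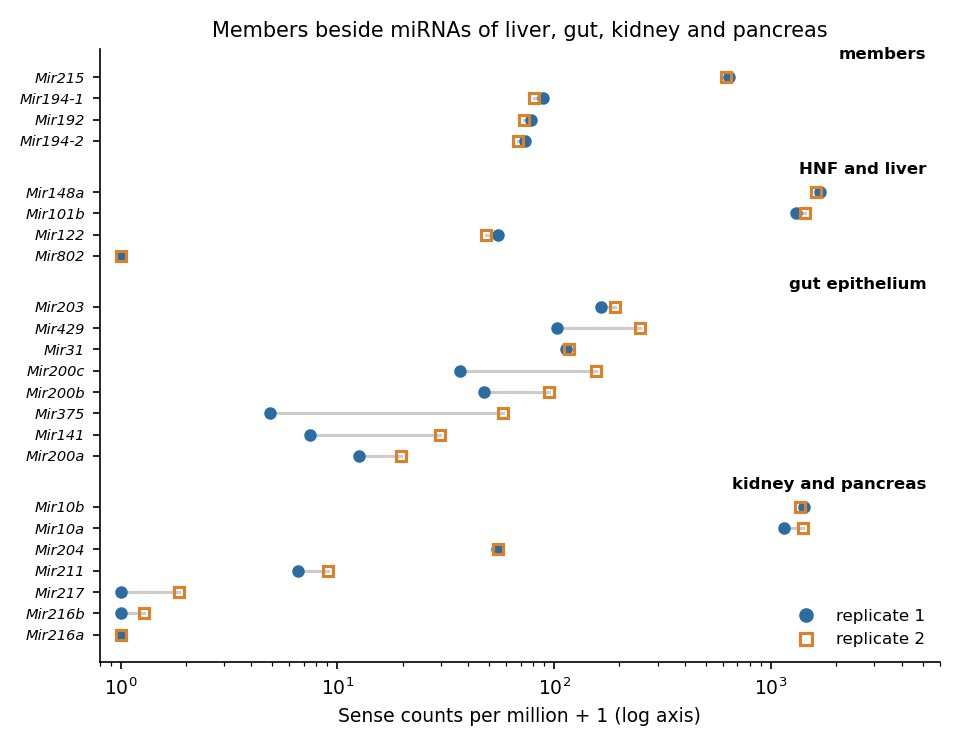
CPM plus 1 (log axis) in replicate 1 (filled circles) and replicate 2 (open squares) for the members and for the liver, gut, and kidney and pancreas lists. The paired points of the members lie close together, while those of Mir375, Mir200c and Mir429 are far apart, and Mir802 and Mir216a are at 0 counts.

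Among the miRNAs that p53 induces or that are counted with them, the list held Mir34a, Mir34b, Mir34c, Mir143, Mir145a, Mir107, Mir15a and Mir16-1. By the exact test 4 of 8 were higher in replicate 2 and 1 lower, and the median log2 ratio was 0.04. Over all genes tested, 14% were called, and 37.8% of those whose mean reached 50 CPM. In replicate 2 over replicate 1, Mir143 (1.03-fold), Mir107 (1.08-fold) and Mir16-1 (0.946-fold) passed with small differences. Mir34b (2.35-fold) and Mir34c (2.36-fold) differed more. Mir34a, the best known p53 target of the list, had 395 and 413 CPM, below Mir215 in both hearts, and did not pass. Mir34c was higher in replicate 2, at 178 and 425 CPM, and also stands in the multiciliated cell list. That list held Mir449a, Mir449b, Mir449c, Mir34b and Mir34c, of which 3 of 5 were higher in replicate 2, with a summed level of 221 CPM in replicate 1 and 1186 CPM in replicate 2. Mir449a carried most of that difference, at 35.7 and 742 CPM, while Mir449b had 0 and 4 counts and Mir449c had 0 and 3. The blood miRNAs, as cells the heart also holds, summed to 627 and 542 CPM for the red cell markers Mir451a and Mir144, and to 536 and 498 CPM for the white cell markers Mir223, Mir150 and Mir155.

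With 1 group, likeness of pattern to a member is likeness of level in the 2 hearts, measured as the Euclidean distance of log2(CPM + 1). Nearest to Mir215 were Mir16-2 (distance 0.0658), Mir27a (0.0677) and Mir320 (0.0863). Nearest to Mir192 were Mir1981 (0.102), Mir486 (0.114) and Mir138-1 (0.125). Nearest to Mir194-1 were Mir138-2 (0.109), Mir1981 (0.144) and Mir3102 (0.144). Nearest to Mir194-2 were Mir486 (0.108) and Mir138-1 (0.111), followed by its own cluster neighbour Mir192 (0.131). The distances rest on 2 libraries and describe those libraries.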

How the data were processed

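Small RNA of 2 newborn mouse hearts was measured, with 1 library per heart. The deposited values are raw counts per miRNA gene, given for the sense strand, for the opposite strand and for their sum. Per the labels and the deposited descriptions, reads were placed on mm10 with the GENCODE M4 annotation. The aligner and the counting tool are not given in the sources used here. The 4 summary rows entered no library size and no test. In replicate 1, 11.5% of reads were unmapped, 36.6% aligned to several places and 5.93% lay on no feature. In replicate 2 these shares were 10.5%, 37.1% and 5.62%.

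Symbols and positions came from GENCODE M21 on GRCm38, which is mm10 (1894 of 1973 identifiers matched), and sequences from RefSeq (GRCm38.p6). CPM, exact intervals (scipy 1.17.1) and the exact binomial test with TMM library sizes (edgeR 4.0.16) were computed from sense counts. For a count of 0, the limit given is that of 3 counts. The test was tested on simulated data with counting error only, which hold no variation between animals or library preparations. Alternatives covered scaling by total counts or by size factors (DESeq2 1.42.0), filters, pseudocounts of 0.1 and 5 CPM, both strands, thinning (20 draws) and each replicate left out. Named genes were the members, the 3 nearest to each in level, genes with a shared seed and up to 4 of the most abundant genes of each list. Outside that rule, Mir540, Mir665, Mir375, Mir34a, Mir449c, Mir1a-1, Mir133a-1, Mir133a-2, Mir216a, Mir216b and Mir217 were given values after these had been seen. The members and lists were chosen with earlier results of these data known.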

Additional observations from a re-analysis of the deposited data

How the results depend on the processing

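None of the 4 members was called under any of 7 alternatives each (28 in all) for scaling, filter, strand or pseudocount. The pseudocount enters only the log2 ratio, so the settings of 0.1 and 5 CPM could not change a call. Their log2 ratios stayed between -0.17 and -0.04 and adjusted p between 0.399 and 0.838 by the exact binomial test. The number of genes called lay between 86 and 97, but the set of genes tested was not always the same. It was 93 with 10 or more counts required in both libraries and 97 with a mean of at least 2 CPM. Those filters leave fewer genes to test, so the share called was above the 14% of the main test. Levels changed with the denominator: scaled to 1000000 reads of any kind, the means were 291.5 CPM for Mir215, 38.9 for Mir194-1, 34.4 for Mir192 and 32.3 for Mir194-2. With counts of both strands as the total, they were 586 CPM for Mir215, 78.3 for Mir194-1, 69.3 for Mir192 and 64.9 for Mir194-2. Both shifts follow from the larger total. The log2 ratio of Mir192 over Mir194-2 was 0.10 with the deeper library thinned, a move beyond its small SD of 0.00305. With 2 replicates, leaving 1 out gives the value of the other, as listed in the report, and says nothing about stability.

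The main limits are the 2 hearts of 1 litter and the counting itself. Reads of miR-194-5p that match both Mir194 genes belong to no gene here, so the levels of Mir194-1 and Mir194-2 and their ratios to Mir192 and Mir215 are uncertain. With 168 to 277 counts, the intervals for Mir192, Mir194-1 and Mir194-2 leave room for a difference between pups of up to 0.740-fold or 1.12-fold.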
